A study of Gallus gallus with 6 samples.

Results

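Small RNA of the chick embryo heart (Gallus gallus) was compared between day 6 of incubation (stage HH29) and day 12 (stage HH38). These 2 libraries, of 6 in the series, were taken because their lists of mature sequences span 21 to 24 nt. At day 8, 95.1% of the listed sequences were 23 nt long, at day 10 98.8% were 21 nt and at day 14 93.5% were 22 nt, while the list of day 4 held only 38 sequences of 21 to 23 nt. Each library came from the RNA pool of 1 stage, from embryos of fertilized eggs with no treatment named, and how many hearts went into a pool is not stated. RNA of 18–30 nt had been cut from a gel, ligated to adapters and amplified before Illumina sequencing. There was 1 library per stage and no replicate, so no test was run between the stages, and every interval below covers counting error only.

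A miRNA is cut from a hairpin in its transcript, and 1 of the strands of the hairpin stem, its 5′ or 3′ arm, is usually kept. Bases 2 to 8 of the kept strand, the seed, pair with target mRNAs, so miRNAs with the same seed can share targets. In the developing heart miR-1 and miR-133 are known for muscle, miR-126 for endothelium, and the let-7 family for rising as tissues mature in many animals.

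The sequences on which the comparison turned are printed first, 5′ to 3′ with the seed in capitals, as the deposited lists give them. The leading miRNA of both libraries and the miRNAs of highest share on day 12 were
miR-10: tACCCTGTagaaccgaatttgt
miR-26: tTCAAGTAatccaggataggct
miR-126: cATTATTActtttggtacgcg
miR-148: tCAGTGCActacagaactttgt
miR-22: aAGCTGCCagttgaagaactgt
miR-204: tTCCCTTTgtcatcctatgcct

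The sequences of the let-7 family with the most reads are shown because all of them share 1 seed and all were higher on day 12. They are named here by a letter of this text alone.
let-7 form A: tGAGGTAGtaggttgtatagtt
let-7 form B: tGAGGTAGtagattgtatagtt
let-7 form C: tGAGGTAGtaggttgtatggtt
let-7 form D: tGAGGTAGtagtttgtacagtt
let-7 form E: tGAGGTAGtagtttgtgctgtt
let-7 form F: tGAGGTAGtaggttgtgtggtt

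The miRNAs that were lower on day 12 by the widest margins were
miR-122: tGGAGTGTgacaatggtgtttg
miR-196: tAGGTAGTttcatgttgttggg

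The day 6 lists held 112 known miRNA sequences and 58 sequences absent from miRBase, which the study calls NSSCs (its stage specific cardiomiRs), with 3323231 reads in all. The day 12 lists held 123 known sequences and 153 NSSCs with 7749271 reads. One line of each day 12 list had no values and was not analysed here. From the value of 1 read, 0.108 RPM (the count scaled to 1 fixed total per library) on day 6 and 0.0267 RPM on day 12, the totals behind the deposited RPM were 9246255 and 37495805 reads, of which the lists held 35.9% and 20.7%. The lowest abundance listed was 6 reads on each day, so a sequence outside a list may be under that limit. Day 12 was the more deeply counted library, and the ratio of a rare sequence rests on the few reads of whichever day held less.

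The 2 hearts differed first in how evenly the reads were spread. On day 6 a single sequence took 72.3% of the listed reads and the 10 leading sequences 91.7%, against 13.3% and 73.5% on day 12. The inverse Simpson index, which is the number of equally abundant sequences that would give the same concentration of reads, was 1.89 on day 6 and 13.96 on day 12. The leading sequence was the same on both days, miR-10.

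miR-10 is encoded within the HOX gene clusters, and in the RefSeq annotation of assembly GRCg7b MIR10B lies within HOXD3. The listed sequence was placed on chromosome 7 from 17389110 to 17389131, minus strand, in Gallus gallus v.2.1. It had 2403702 reads on day 6 and 1027513 on day 12, or 259965 and 27403 RPM. As a share of listed reads it was 5.45-fold lower on day 12 (log2 ratio −2.45, 95% interval −2.45 to −2.44), and by RPM the log2 ratio was −3.25. Any log2 ratio was 0.80 lower by RPM than by share of listed reads, since the lists held 35.9% of the reads behind the RPM on day 6 and 20.7% on day 12. Because miR-10 filled so much of day 6, it was 1.65 lower once miR-10 was left out of both libraries.

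For this reason each family was read on 4 scales: share of listed reads, RPM, share without miR-10, and the median ratio of the families in both libraries set to 1. The median log2 ratio of the 74 families listed on both days (69.2% of all families) was −0.37 by share, −1.17 by RPM and −2.02 without miR-10. By share 22 families (29.7% of the 74) were at least 2-fold higher on day 12 and 26 (35.1%) at least 2-fold lower. By RPM 13 (17.6%) were higher and 39 (52.7%) lower, and without miR-10 8 (10.8%) and 49 (66.2%). With the median ratio set to 1, 25 (33.8%) were higher and 22 (29.7%) lower. On all 4 scales 8 families (10.8%) were higher and 22 (29.7%) lower. The scales differ by a constant for every family, so the 8 are those of the scale without miR-10 and the 22 those of the median ratio. These counts rest on unlike limits by share, so their sizes cannot be compared. The 22 count miR-10 itself, whose reads on the scale without it were set against the other listed reads (log2 −4.10). The families in both libraries held 99.974% of the listed reads of day 6 that belong to known families and 97.2% of those of day 12.

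**Figure D1:**
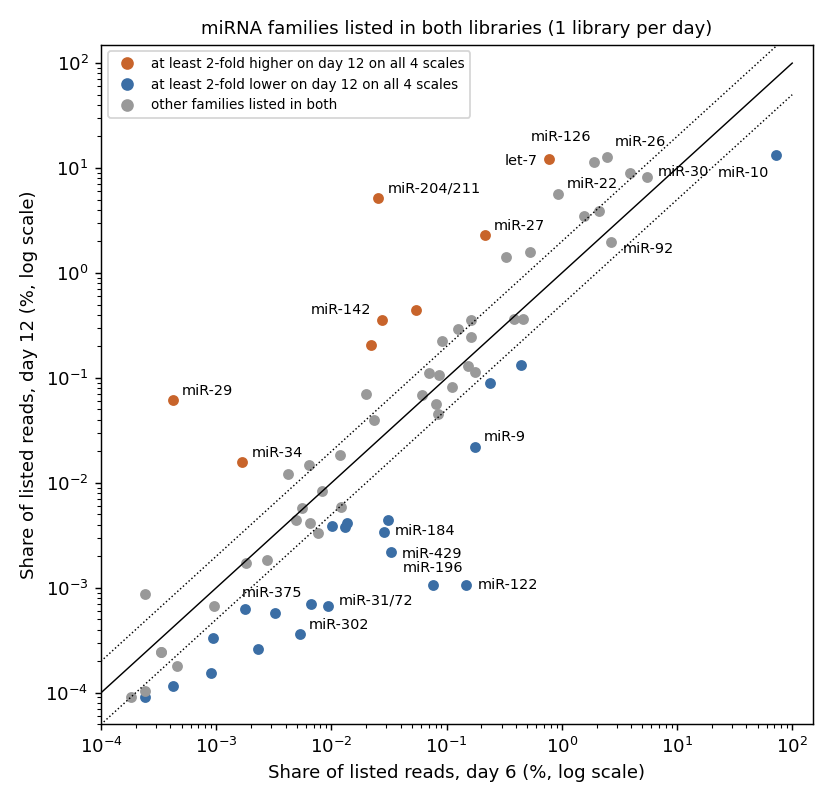
Share of listed reads (%) of each of the 74 families on day 6 (x axis) and day 12 (y axis), both on log scales, 1 point per family and 1 library per day; the solid line marks equal shares and the dotted lines a 2-fold difference. let-7, miR-204, miR-27, miR-142, miR-29 and miR-34 are among the 8 families higher on day 12 on every scale, and miR-10, miR-122 and miR-196 among the 22 that were lower.

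The 8 families higher on day 12 on all 4 scales were let-7, miR-204, miR-27, miR-23, miR-2188, miR-142, miR-29 and miR-34. Both let-7 and miR-204 were among the most abundant families of day 12.

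let-7, which in many animals is held back in early stages by the RNA-binding protein LIN28, had 25483 reads on day 6 and 942068 on day 12. Its share went from 0.767% to 12.2%, 15.9-fold higher (log2 3.99, 95% interval 3.97 to 4.00), and its log2 ratio was 3.19 by RPM and 2.34 without miR-10. The difference was carried by many members and not by 1 of them. Form A had 8457 and 417722 reads, form B 8830 and 201665, and form C 5359 and 160058. Form D had 1182 and 58343 reads, form E 1147 and 56322, and form F 98 and 40358. Among these, the log2 ratio by share was lowest for form B (3.29) and highest for form F (7.46), while forms A, D and E lay close together at 4.40, 4.40 and 4.40. Within the family, form A made up 33.2% of the reads on day 6 and 44.3% on day 12, form B 34.7% and 21.4%, and form F 0.385% and 4.28%. Form A is listed at 4 loci, so its reads cannot be assigned to 1 of them.

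miR-204, which the lists name together with miR-211 and which is known from the eye and choroid plexus, showed the largest increase of any family with at least 100 reads on both days. It had 846 reads on day 6 and 398177 on day 12, or 91.5 and 10619 RPM. Its share was 0.0255% and 5.14%, a 202-fold difference (log2 7.66, 95% interval 7.56 to 7.76), and the log2 ratio stayed at 6.01 without miR-10. The sequence is listed at 2 loci, and MIR204-1 and MIR204-2 lie within TRPM3 and TRPM1 in GRCg7b. Of the eye and choroid plexus list the other members, miR-96, miR-182 and miR-183, were in neither known list.

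miR-23 and miR-27, which come from 1 cluster with miR-24, were listed on chromosome Z from 41157457 to 41157479 and from 41157702 to 41157722, plus strand. miR-27 had 7148 reads on day 6 and 178083 on day 12 (log2 ratio by share 3.42, without miR-10 1.77). miR-23 had 725 and 15913 reads (3.23 and 1.59). The neighbours thus differed between the days by nearly the same amount, and miR-24 was in neither known list.

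miR-142, a miRNA of blood-forming cells, had 912 reads on day 6 and 27826 on day 12 (log2 3.71, 95% interval 3.61 to 3.81). miR-29, which is known to repress collagen genes in mammals, had 14 and 4772 reads (log2 7.19, 95% interval 6.44 to 8.06), a wide interval set by the 14 reads of day 6. No miR-29 sequence was listed on both days, so this ratio joins different forms. The day 6 reads were of a 22-nt form. On day 12 a 21-nt form of that arm had 3430 reads (log2 6.72) and another member had 1342. miR-34, a target of p53 in mammals, had 56 and 1211 reads (log2 3.21, 95% interval 2.83 to 3.63). miR-2188, listed on chromosome 22, had 1807 and 34237 reads (log2 3.02). Without miR-10 the log2 ratios of these 4 families were 2.06, 5.54, 1.56 and 1.37.

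**Figure D2:**
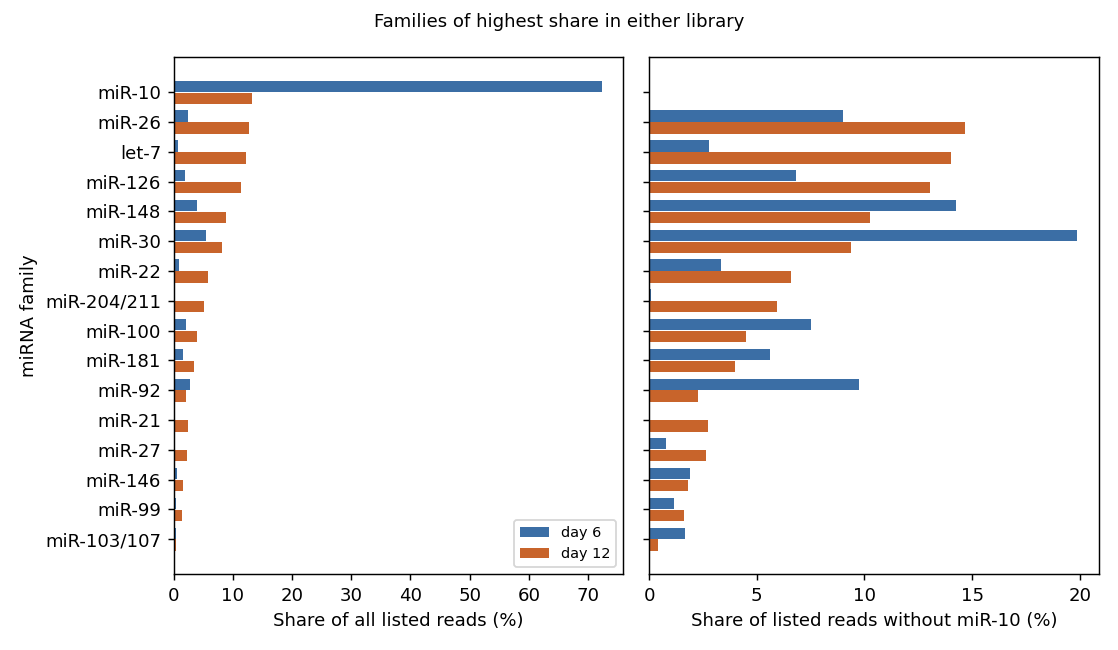
Share of listed reads (%) of the 16 families of highest share in either known list, on day 6 (blue) and day 12 (orange), for all listed reads (left) and after miR-10 was left out (right), 1 library per day. miR-10 took 72.3% of day 6, and let-7 and miR-204 are higher on day 12 in both panels (the plot labels miR-204 with miR-211). miR-148, miR-30, miR-100, miR-181 and miR-146 change sides between the panels. miR-21 has no day 6 bar because its day 6 form stood in the NSSC list.

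Several of the most abundant families of day 12 passed 2-fold by share but not on every scale. miR-26, which lies in genes of the CTDSP phosphatases (CTDSPL and CTDSP1 in GRCg7b), had 82749 and 984387 reads, 2.49% and 12.7% of the listed reads (log2 2.35 by share, 1.55 by RPM and 0.70 without miR-10). miR-126, the endothelial miRNA within EGFL7, had 62609 and 876501 reads, 1.88% and 11.3% (log2 2.59, 1.79 and 0.94). miR-22, well known from heart muscle in the mouse, had 30534 and 442081 reads, 0.919% and 5.70% (log2 2.63, 1.84 and 0.99). For these 3 families the direction was the same on all scales and the size fell short of 2-fold only when miR-10 was left out.

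For others the direction itself depended on the scale. miR-148 had 130914 reads on day 6 and 689796 on day 12, with a log2 ratio of 1.18 by share and −0.47 without miR-10. miR-181, miR-101, miR-19, miR-146, miR-133 and miR-7 were also at least 2-fold higher by share and lower without miR-10, where their log2 ratios were −0.49, −0.44, −0.52, −0.064, −0.33 and −0.45. For miR-133 this holds for its known sequences alone, since with its NSSC added it was higher without miR-10 too (log2 0.94). miR-92, a member of the miR-17-92 cluster known for cell proliferation, was lower in direction on all 4 scales, with 89525 and 153926 reads and log2 ratios of −0.44 by share, −1.24 by RPM and −2.09 without miR-10. Of the miR-99/100 group, miR-99 had 10823 and 109883 reads (log2 2.12 by share and 0.47 without miR-10) and miR-100 69146 and 301263 (0.90 and −0.75).

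miR-30, abundant in heart muscle, was the second family of day 6 after miR-10, with 182708 reads (5.50%) against 629639 (8.13%) on day 12. Its log2 ratio was 0.56 by share, −0.23 by RPM and −1.08 without miR-10. Its 5 forms share 1 seed.
miR-30, chromosome 3: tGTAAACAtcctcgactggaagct
miR-30, chromosome 23: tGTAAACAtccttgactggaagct
miR-30, chromosome 2, first form: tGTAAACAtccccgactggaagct
miR-30, chromosome 2, second form: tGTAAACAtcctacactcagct
miR-30, 2 loci: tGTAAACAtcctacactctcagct

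The form of chromosome 3 had 57146 reads on day 6 and 305333 on day 12, and that of chromosome 23 had 56848 and 227037. The first form of chromosome 2 had 56090 reads on day 6 and was not among the lines of day 12 read here. One day 12 line of the known list had no values, so the level of this form on day 12 is not known. The second had 2148 and 32630 reads, the largest ratio of the 4 forms found on both days (log2 2.70 by share and 1.06 without miR-10). Over the 4 shared forms alone the family went from 126618 to 629639 reads, 3.81% to 8.13% (log2 1.09), so whether miR-30 passes 2-fold by share depends on that form.

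Of the 22 families lower on day 12 on all 4 scales, 10 had at least 100 reads on both days: miR-10, miR-429, miR-184, miR-9, miR-200, miR-135, miR-301, miR-1720, miR-205 and miR-456. miR-122 and miR-196 were the families with the largest ratios among the 22.

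miR-122, the miRNA typical of liver, had 4939 reads on day 6 and 82 on day 12, or 534 and 2.19 RPM. Its share was 140-fold lower (log2 −7.13, 95% interval −7.47 to −6.82). Of the 6 miRNAs of the liver, intestine and kidney list, miR-122 alone was in the day 6 known list and 3 were in that of day 12. The list summed to 0.149% and 0.00563% of the listed reads, with miR-192, miR-215 and miR-217 in neither known list. Its members did not all move 1 way: by share miR-122 and miR-215 were lower (log2 −7.13 and −0.52) and miR-194 higher (21 and 332 reads, log2 2.76). miR-216 had 22 reads on day 12 alone. With the NSSC forms of miR-215 (1484 and 2420 reads) and miR-194 (21 reads on day 6) added, the list summed to 0.194% and 0.0369%, a 5.26-fold difference. The part of other tissue in this difference was not tested. In these bulk samples, fewer cells of a type and less RNA per cell cannot be told apart.

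miR-196, encoded in the HOX clusters as miR-10 is, had 2507 reads on day 6 and 83 on day 12 (log2 −6.14, 95% interval −6.47 to −5.82), or 271 and 2.21 RPM. It is listed at 2 loci. By share and by RPM both miR-10 and miR-196 were thus lower on day 12, whereas miR-99 and miR-100, whose seed is ACCCGTA, were at least 2-fold lower on none of the 4 scales.

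The epithelial list of 6 miRNAs had 5 in each known list, and 4 of the 5 were at least 2-fold lower by share, against 35.1% of all families. miR-200 and miR-429, which repress the ZEB transcription factors in mammals, went from 1019 to 344 reads and from 1092 to 169 (log2 −2.79 and −3.91). Their 3 sequences lie together on chromosome 21.
miR-429, day 6: tAATACTGtctggtaatgccgt
miR-200, first form: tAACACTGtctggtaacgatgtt
miR-200, second form: tAATACTGcctggtaatgatgat

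The second miR-200 form shares its seed with miR-429. The forms had 511 and 159 reads, and 508 and 185 reads. miR-375, known from pancreatic islets and other epithelia, had 222 and 54 reads (log2 −3.26), and miR-205 7829 and 6953 (log2 −1.39). miR-203, a skin miRNA, had 185 and 446 reads (log2 0.05, 95% interval −0.20 to 0.30) and did not differ beyond counting error by share. The list summed to 0.311% of the listed reads on day 6 and 0.103% on day 12, and miR-141 was in neither list.

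The neural list of 8 miRNAs had 7 on day 6 and 6 on day 12. Of the 6 on both days 3 were at least 2-fold lower by share and 1 was higher, beside 35.1% and 29.7% of all families. miR-9, a miRNA of neural progenitors, had 5824 and 1709 reads (log2 −2.99, 95% interval −3.07 to −2.91). miR-383 had 108 and 45 reads (log2 −2.48) and miR-137 59 and 49 (log2 −1.49). miR-128 had 3705 and 6285 reads (log2 −0.46), miR-153 273 and 644 (log2 0.02), and miR-7 213 and 1141 (log2 1.20). miR-124 had 48 reads on day 6 in the known list and 264 on day 12 as an NSSC that starts 1 base earlier. The list summed to 0.308% and 0.127%, and by share its members did not all move 1 way. Without miR-10, 5 of the 6 were at least 2-fold lower and 0 higher, beside 66.2% and 10.8% of all families on that scale. There miR-7 was at log2 −0.45.

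miR-184, known from the lens and cornea, had 956 reads on day 6 and 264 on day 12 (log2 −3.08). miR-302, a miRNA of pluripotent cells, had 176 and 28 reads (log2 −3.87, 95% interval −4.50 to −3.29). miR-31/72 had 312 and 52 reads (log2 −3.81). miR-301, of the miR-130 seed family, had 14802 and 10276 reads (log2 −1.75), miR-135 435 and 296 (log2 −1.78), miR-1720 451 and 321 (log2 −1.71) and miR-456 333 and 299 (log2 −1.38). All 7 were among the 22 families lower on every scale.

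The heart label was set against the muscle list of 6 miRNAs. miR-1, miR-208, miR-378 and miR-499, of which miR-1, miR-208 and miR-499 are typical of heart muscle in vertebrates, were in neither known list. The muscle miRNA miR-133 was listed on both days. Its 2 known sequences had 2690 and 14757, and 330 and 2791 reads. An NSSC on chromosome 2, at a hairpin that the known lists of days 10 and 14 name miR-133, from 105670370 to 105670392, minus strand, had 3634 and 75831 reads and was the most abundant NSSC of day 12.
miR-133, known: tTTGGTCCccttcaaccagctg
miR-133, known, shorter: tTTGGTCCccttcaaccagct
miR-133, NSSC: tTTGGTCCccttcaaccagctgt

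With the NSSC added, miR-133 went from 6654 to 93379 reads, 0.2002% to 1.21% (log2 2.59 by share, 1.79 by RPM and 0.94 without miR-10), against log2 1.32 by share and −0.33 without miR-10 from the known sequences alone. The known lists alone thus leave out most reads of this muscle miRNA on day 12. miR-206, a skeletal muscle miRNA, lies on chromosome 3 beside the shorter miR-133 form. It had 164 and 341 reads (log2 −0.17 by share, 95% interval −0.44 to 0.11, and −1.81 without miR-10).

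Other cell types were represented by few listed miRNAs. Of the 4 endothelial miRNAs, miR-126 held nearly all the reads, and miR-222 had 24 reads on day 6 alone. miR-218 had 2013 and 5309 reads (log2 0.18 by share and −1.47 without miR-10). Of the 6 miRNAs for smooth muscle and fibroblasts, miR-143, miR-145, miR-199 and miR-214 were in neither known list. miR-21 had 12837 reads on day 6 as an NSSC and 184897 on day 12 as a known sequence (log2 2.63 by share and 0.98 without miR-10). The red blood cell list (miR-144, miR-451 and miR-486) was absent from both known lists. An NSSC of day 6 with 1712 reads lay on a hairpin that the known lists of days 4 and 8 name miR-144, on the arm opposite to the one listed there, and was not among the NSSCs of day 12. Of the 5 miRNAs for white blood cells and platelets, miR-155 had 1675 reads on day 12 alone, and miR-150 and miR-223 were in neither list. The cartilage miRNA miR-140 had 12746 and 27979 reads (log2 −0.09 by share and −1.74 without miR-10). Since many defining markers of heart muscle, smooth muscle and blood are not among the lines read, these lists cannot give the cell make-up of either heart.

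Within some families the members differed between the days by unequal amounts, which a sum over the family hides. These pairs are printed because their seeds are equal and the rest of the sequence tells them apart.
miR-146, chromosome 4: tGAGAACTgaattccatggactg
miR-146, chromosome 13: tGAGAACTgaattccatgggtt
miR-181, longer form: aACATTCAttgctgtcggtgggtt
miR-181, shorter form, day 12: aACATTCAacgctgtcggtgag
miR-205, chromosome 1: cCCTTCATtccaccggaatctg
miR-205, chromosome 26: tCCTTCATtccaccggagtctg

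The miR-146 sequence of chromosome 4 had 17595 reads on day 6 and 16271 on day 12 (log2 −1.33 by share). That of chromosome 13 had 106782 reads on day 12, and on day 6 a form 1 base longer had 85 reads in the NSSC list (log2 9.07, 95% interval 8.77 to 9.40). Thus the miR-146 reads of day 12 were 86.8% from chromosome 13. On day 6 the sequence of chromosome 4 held nearly all reads on miR-146 arms. The seed GAGAACT summed to 18673 reads on day 6, which include a further NSSC outside known hairpins. The longer miR-181 form had 11765 and 16010 reads (log2 −0.78), and the arm of the other form had 39797 and 252289 (log2 1.44). By share these directions were opposite, and without miR-10 both were lower (log2 −2.43 and −0.21). The miR-205 sequence of chromosome 26 had 2621 and 377 reads (log2 −4.02), the largest decrease of any sequence with at least 100 reads on both days. The sequence of chromosome 1 had 5208 and 6576 reads (log2 −0.88), so it made up 66.5% of miR-205 on day 6 and 94.6% on day 12.

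Over single sequences, 112 were listed on both days, 65.9% of the 170 of day 6 and 40.6% of the 276 of day 12. They held 93.7% and 87.7% of the listed reads. By share 32 (28.6%) were at least 2-fold higher on day 12 and 37 (33.0%) lower, by RPM 24 (21.4%) were higher and 62 (55.4%) lower, and without miR-10 16 (14.3%) and 77 (68.8%). On all 4 scales 16 (14.3%) were higher and 25 (22.3%) lower. Among sequences with at least 100 reads on both days, the 5 with the largest increase were miR-204, let-7 forms A, D and E, and miR-142. Under the same limit the 5 with the largest decrease were the miR-205 sequence of chromosome 26, miR-184, miR-9 and both forms of miR-200.

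Sequences whose loci lie within 10 kb on 1 strand were also compared, since such neighbours can come from 1 transcript. The 5 listed sequences of the miR-17-92 cluster on chromosome 1 spread from a log2 ratio of −0.44 by share for miR-92 to 1.27 for miR-19, with 2549 and 5791 reads (−0.04) for miR-20, 3700 and 8170 (−0.08) for miR-18, and 1326 and 4628 (0.58) for the second miR-19. The related cluster of chromosome 4 held miR-20 with 3282 and 3037 reads (−1.33), miR-18 with 1347 and 1912 (−0.72) and miR-106 with 2457 reads on day 12 alone. On chromosome 15, miR-301 lies near miR-454 and miR-130, and these had log2 ratios of −1.75, 0.05 and −0.37. The 3 sequences of chromosome 21, miR-429 and both forms of miR-200, were all lower by share, as were the miR-20 and miR-18 of chromosome 4. Without miR-10 all listed sequences of the 4 clusters that were read on both days were lower, those of chromosome 1 by log2 ratios from −2.09 to −0.38. On that scale most sequences were lower, 77 of all 112 listed on both days (68.8%) by at least 2-fold. A let-7 cluster of chromosome 12 held forms A and B and, on day 12 alone, 41 reads of the arm opposite to form B. Another let-7 sequence there had 36 reads on day 12 alone, beside a let-7 NSSC with 30 and 338 reads.

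The 2 libraries differed as well in where the mature sequences ended. Of 137 arms listed on both days, 112 had the same sequence and 25 (18.2%) a different one. In 17 of the 25 the start was the same and the 3′ end was shorter on day 12, 15 of them by 1 nt and 2 by 2 nt. In 3 the 3′ end was longer and in 5 the start differed. Among the 12 arms with at least 100 reads on both days, 11 were shorter on day 12 and 1 was longer.

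The forms are printed in pairs, day 6 and then day 12, because only their last bases differ and the seed is kept.
miR-100, day 6: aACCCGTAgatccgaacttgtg
miR-100, day 12: aACCCGTAgatccgaacttgt
miR-21, day 6: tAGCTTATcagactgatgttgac
miR-21, day 12: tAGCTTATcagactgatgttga
miR-454, day 6: tAGTGCAAtattgcttatagggtc
miR-454, day 12: tAGTGCAAtattgcttatagggt
miR-23, day 6: aTCACATTgccagggattaccac
miR-23, day 12: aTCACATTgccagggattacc
miR-130, day 6: cAGTGCAAtgttaaaagggcat
miR-130, day 12: cAGTGCAAtgttaaaagggcatt

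The listed miR-100 had 22 nt on day 6 and 21 nt on day 12, and miR-23 had 23 and 21 nt. miR-21 went from 23 to 22 nt and miR-454 from 24 to 23 nt, and in both the day 6 form was an NSSC and the day 12 form a known miRNA. miR-454 had 11471 and 27697 reads (log2 0.05 by share), so a comparison of the known lists alone would place it on day 12 only. miR-130 was the arm that was longer on day 12, with 887 and 5723 reads at 22 and 23 nt. The rule by which the authors chose the listed form of an arm was not stated.

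**Figure D3:**
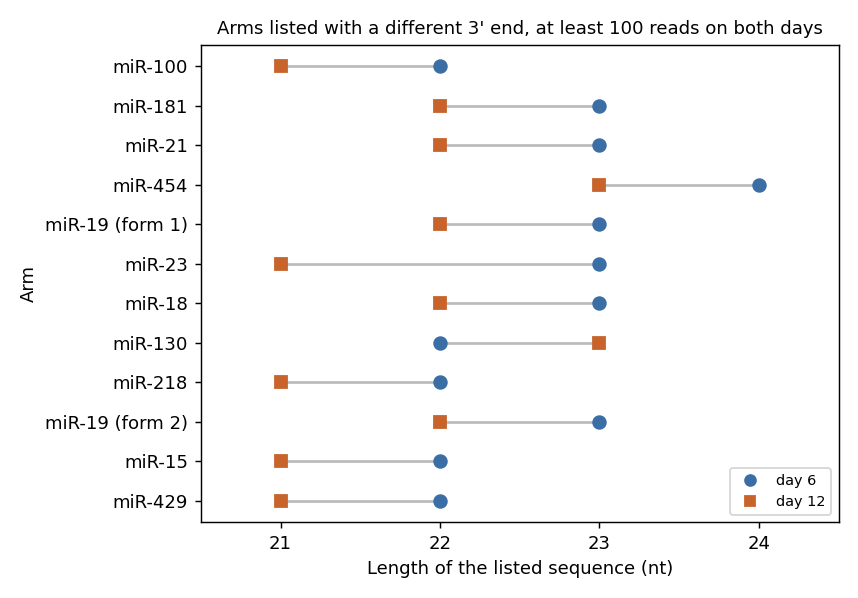
Length in nt of the listed sequence of the 12 arms that had another 3′ end on day 12 than on day 6 and at least 100 reads on each day; circles are day 6, squares day 12 and each row is 1 arm, in 1 library per day. All but miR-130 are shorter on day 12, and miR-23 is shorter by 2 nt.

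Reads of single end forms are given in the lists for the arm opposite to a listed sequence, so for a few arms the spread of forms could be read directly. The let-7 arm of form A had 9233 such reads on day 6 and 487459 on day 12. Its 21-nt form made up 518 of the reads on day 6 (5.61%) and 58045 on day 12 (11.9%), and its 22-nt form 91.6% and 85.7%.
let-7 form A, 22 nt: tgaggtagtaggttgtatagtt
let-7 form A, 21 nt: tgaggtagtaggttgtatagt

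For the arm of form D the 21-nt form took 42 of 1229 reads on day 6 (3.42%) and 11535 of 70062 on day 12 (16.5%). In the arm opposite to the listed miR-126 sequence, the 21-nt form with the shorter 3′ end took 4.47% (95% Wilson interval 3.81 to 5.24) on day 6 and 7.52% (7.33 to 7.73) on day 12, while the leading 21-nt form, which keeps the 3′ end and starts 1 base later, took 37.2% and 28.4%. In the opposite arm of miR-26 the form with the shorter 3′ end took 5.13% (2.81 to 9.18) and 7.06% (5.55 to 8.95), which overlap within counting error. In that of miR-140 it took 5.36% (3.60 to 7.92) and 5.56% (4.67 to 6.62), which overlap as well. The miR-140 form with the longer 3′ end took 5.13% (3.41 to 7.64) and 2.22% (1.67 to 2.93), which do not overlap. The mean length of the miR-126 opposite arm was 21.58 nt on day 6 and 21.63 nt on day 12. Of 22 opposite arms with at least 20 reads on both days, the mean length was lower on day 12 in 14 and higher in 8. The let-7 form D hairpin counts once for each of its arms, on opposite sides. Some of these differences were very small, such as −0.01 nt for miR-490 and 0.01 nt for miR-27.

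By reads, 21 nt sequences held 2.47% of day 6 and 18.7% of day 12, and 22 nt sequences 87.5% and 71.0%. Since miR-10 is 22 nt long, it decided most of the day 6 value. Without it, 21 nt held 8.92% and 21.5%, 22 nt 54.7% and 66.6%, 23 nt 13.997% and 2.76%, and 24 nt 22.3% and 9.14%. Without miR-10 the mean length was 22.498 nt on day 6, against 21.995 nt for the day 12 library. The part of size selection or trimming in these differences was not tested.

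**Figure D4:**
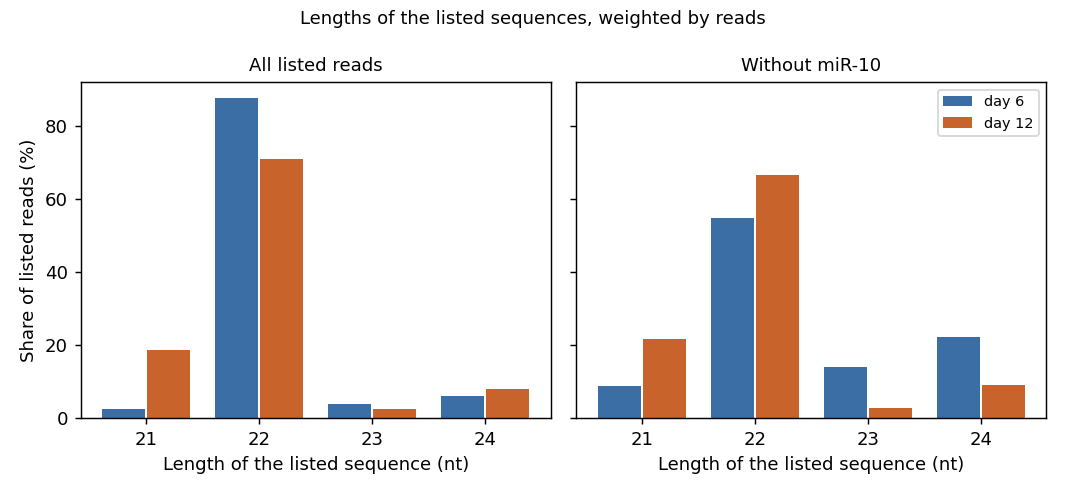
Share of listed reads (%) at each length of the listed sequence in nt, on day 6 (blue) and day 12 (orange), for all listed reads (left) and without miR-10 (right), 1 library per day. Without miR-10 the share at 23 and 24 nt is higher on day 6 and that at 21 and 22 nt higher on day 12.

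The opposite arm of a hairpin gives a measure that does not depend on the scale of a library. It is the share of that arm among its own reads and those of the listed sequence. Other end forms of the listed arm are left out, and their part can differ between the days. For let-7 form D the listed sequence held 96.2% of the reads of its arm on day 6 and 83.3% on day 12. For miR-126 the share of the opposite arm was 4.92% (95% Wilson interval 4.76 to 5.09) on day 6, 3241 reads, and 7.10% (7.05 to 7.15) on day 12, 66954 reads. For miR-140 it was 3.26% and 7.05%, and for the miR-146 hairpin of chromosome 4 1.78% and 5.42%. For miR-26 it was 0.235% and 0.0891%, and for let-7 form D 3.19% and 0.204%. Among 16 hairpins of 1 locus with the same listed sequence on both days, whose opposite arm was the minor one with at least 20 reads, this share was higher on day 12 in 7 and lower in 9, so there was no common direction. The opposite arm of miR-10 had 84 reads on day 6 and 11 on day 12. In miR-100 it had 2 reads on day 6 and 583 on day 12, while the listed arm had 69146 and 301263.

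Both arms of 1 hairpin were in the known lists of both days, that of let-7 form D on chromosome 12. The listed 5′ sequence had 1182 and 58343 reads and the listed 3′ sequence 31 and 91, so the 5′ sequence held 97.4% and 99.8% of their reads. With NSSCs counted, a let-7 hairpin of chromosome 26 was the other one.

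NSSCs were many and mostly rare. They took 1.06% of the listed reads on day 6 and 1.15% on day 12, with a median of 15 and 7 reads. Of the 58 NSSCs of day 6, 10 lay on a hairpin that the known list of any of the 6 libraries holds (17.2%, 95% Wilson interval 9.64 to 28.9), and of the 153 of day 12, 12 did (7.84%, 4.54 to 13.2). These few held 89.0% and 96.0% of the NSSC reads. The leading NSSCs were therefore forms of known miRNAs: miR-21, miR-454 and miR-133 on day 6, and miR-133, miR-130 and miR-215 on day 12. Outside known hairpins the highest count of an NSSC was 993 reads on day 6 and, for another sequence, 784 on day 12.

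Of all NSSCs 25 were listed on both days, 43.1% of those of day 6 and 16.3% of those of day 12. After miR-133, the most abundant of them was a sequence on the arm of miR-215 on chromosome 3, with 1484 and 2420 reads (log2 −0.52 by share). The leading shared NSSCs outside known hairpins are shown because no miRBase name identifies them.
NSSC, chromosome 3, first: tTGACTTCagtaggagcaggatt
NSSC, chromosome Z: aAAGGACGgaggcggcccgcgc
NSSC, chromosome 3, second: aCGGGACAgtgctgaagactac
NSSC, chromosome 16: aGGATTCGgcgctctcaccgcc

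The first of chromosome 3, from 76659806 to 76659828, had 368 reads on day 6 and 784 on day 12 (log2 −0.13, 95% interval −0.31 to 0.05), which is within counting error by share. That of chromosome Z, from 44167547 to 44167568, had 334 and 432 reads (log2 −0.85). The second of chromosome 3, from 4348337 to 4348358, had 325 and 176 reads (log2 −2.11), and that of chromosome 16, from 145177 to 145198, had 171 and 562 (log2 0.50). By share the NSSCs found on both days thus included sequences higher and lower on day 12. Without miR-10 the sequences shown here were all lower (log2 −1.78, −2.50, −3.75 and −1.15), where 68.8% of all sequences listed on both days were at least 2-fold lower. The miR-133 NSSC stayed higher on that scale (log2 1.51).

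Of the families, 13 were in the known list of day 6 alone and 20 in that of day 12 alone. On day 6 these were led by miR-2131 with 394 reads, miR-551 with 206, miR-147 with 50, miR-124 with 48 and miR-6548 with 34. On day 12 they were led by miR-21, miR-454, miR-106, miR-155 and miR-194, the last with 332 reads. With NSSCs on mature arms added, 84 of 110 families were listed on both days (76.4%) against 69.2% from the known lists alone, since miR-21, miR-454, miR-147, miR-124, miR-194 and miR-6548, among others, then had reads on each day. Absence from 1 known list was in these cases a difference in the listed form and not in detection.

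Summed by seed, the 10 leading seeds held 94.6% of the listed reads on day 6 and 86.1% on day 12. The let-7 seed GAGGTAG was carried by 8 sequences with 25482 reads on day 6 and 942032 on day 12. The seed AGTGCAA of miR-130, miR-301 and miR-454, carried by 6 sequences, had 29090 and 47174 reads (log2 −0.52), so the unequal ratios of miR-301, miR-454 and miR-130 summed to a lower share on day 12. The seed TTGGTCC of miR-133 had 6654 and 93379 reads (log2 2.59). By first base, sequences that start with T held 91.0% of the reads on day 6 and 71.4% on day 12, and 67.4% and 67.0% once miR-10 was left out.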

How the data were processed

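The deposited lists give a read count (abundance) for every known miRNA and NSSC and the RPM that the authors made from it, after trimming adapters, mapping tags with BLAT to Gallus gallus v.2.1 with at most 1 mismatch and searching miRBase. The submitters' processing notes name TopHat and Cufflinks without a version. The expression values deposited by the authors in RPM were each the count times 1 constant per library, within 0.1% on all 190 and 296 lines. Day and stage came from the labels.

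Each mature sequence was counted once however many loci it had, and families join miRBase names of 1 number, or several numbers given on 1 line of the lists, as for miR-31/72. Ratios carry conditional exact binomial 95% intervals, shares Wilson intervals (scipy 1.17.1). A family was called at 2-fold or more. Arms were matched by at least 15 nt of overlap. The named families were those of highest share, of largest change with at least 100 reads on both days, of 20 lists by tissue or cluster, and those in 1 library alone. Named outside that rule, after their values were seen, were single members of families, arms with other 3′ ends, miR-215 and opposite arms. Members and lists were chosen with earlier results of these data known. RefSeq (GRCg7b) gave gene names only. Ratios and calls were checked on simulated counts with counting error only. That check covers neither the choice of scale nor variation between libraries. Alternatives were other scales, minimum reads, folds and family definitions.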

Additional observations from a re-analysis of the deposited data

How the results depend on the processing

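No paired analysis was possible because each stage had 1 library. Depth limits low ratios: a ratio from the 14 reads of miR-29 on day 6 has an interval over 1 log2 unit wide. Of 35 named families past 2-fold by share, 28 kept their direction under each alternative that could be run for them (28 of the 50 named families had 22 nt sequences on both days, and 44 had shared sequences). Without miR-10, 7 turned: miR-101 (−0.44), miR-133 (−0.33), miR-146 (−0.064), miR-148 (−0.47), miR-181 (−0.49), miR-19 (−0.52) and miR-7 (−0.45), because that scale shifts every ratio by 1.65. With its NSSC added, miR-133 did not turn on that scale (log2 0.94). Over sequences listed on both days alone, an alternative chosen after seeing the data, miR-146 (−1.33) and miR-181 (−0.78) turned too, since their higher members have other end forms. RPM and the median ratio shift every log2 ratio by 0.80 and 0.37, less than the 2-fold limit, so they could turn no called family. Added NSSCs, the most abundant sequence, every locus line and 22 nt alone turned none. For a family of 1 locus and 22 nt the last 2 change the totals alone. For miR-10 (log2 −2.45) they gave −2.74 and −2.15, so they too could turn few families.

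Of the 112 sequences in both libraries (32 higher and 37 lower), RPM gave 24 higher and 62 lower, and the share without miR-10 gave 16 higher and 77 lower. A fold of 4 gave 21 higher and 18 lower. With at least 100 reads in both, 67 sequences were left, 26 higher and 15 lower, so more were higher than lower. Of the 74 families (22 higher and 26 lower), RPM gave 13 higher and 39 lower, and without miR-10 there were 8 higher and 49 lower. A fold of 4 gave 12 higher and 13 lower. With at least 100 reads in both, 51 families were left, 19 higher and 12 lower, so here too more were higher. With 22 nt alone, 42 families were left, 13 higher and 12 lower. NSSCs of day 6 on known hairpins numbered 6 with the lists of days 6 and 12 and 10 with those of all 6 libraries. Hairpins with both arms on both days went from 1 to 2 with NSSCs.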
